A study of Homo sapiens with 12 samples.

Results

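CPT plus TNFα was compared with no treatment in wildtype (WT) HCT116 cells, a human colon cancer line, and the combined response was set against the sum of the responses to each agent alone. The 2 libraries of this comparison are among the 12 total RNA-seq libraries of the series. They come from WT cells that received no inhibitor and no TNFα, and from WT cells that were given the topoisomerase 1 (TOP1) inhibitor camptothecin (CPT, 5 µM, 2 h) followed by TNFα (20 ng/mL, 1 h). The additive expectation also needs WT cells with CPT and no TNFα, and WT cells with TNFα and no inhibitor, so that 4 libraries enter it. Each condition has 1 library, and no value below has a replicate. The same 4 conditions in p65-deficient HCT116 cells (clone 32) are used for comparison. Clone 32 is a single-cell clone that the study describes as made with CRISPR-Cas9 and the labels as shRNA p65. The WT libraries with the TOP2 inhibitor ICRF193 (5 µM, 2 h) in place of CPT are also used for comparison. All 12 libraries enter the pooled test described below.

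The 4 WT libraries held between 17115637 and 22051046 counted reads. In clone 32 the untreated and the CPT library held 20524958 and 18502365 reads, whereas the TNFα and the CPT plus TNFα library held 8101212 and 8154407. Among these 4 libraries a low depth went with TNFα, and its part in the clone 32 values was not tested. The clone 32 libraries with ICRF193, which enter the pooled test, held 8755001 reads without and 8676666 with TNFα. *RELA*, the gene of p65, had 694 to 909 normalized reads in the WT libraries and 548 to 673 in those of clone 32. Of the 8 colon epithelial markers examined, 6 reached 20 reads in a WT library used here (67640 to 83860 reads in sum per library), while *VIL1* and *LGALS4* did not reach that number. Fibroblast markers summed to 111 to 163 reads, mostly *COL1A1*, leukocyte markers to 5 to 18 and endothelial markers to 11 to 29.

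TNFα binds TNF receptor 1 and activates the IKK kinases, which release NF-κB dimers such as p65/p50 from their inhibitor IκBα. The dimers then switch on chemokine genes, anti-apoptotic genes and the genes of their own inhibitors within minutes, and the receptor also activates the JNK pathway towards AP-1 factors such as c-Jun. TOP1 relaxes the supercoils that form ahead of and behind RNA polymerase II, and CPT traps it on DNA as a cleavage complex. The cells without TNFα are described as having had 2 h of CPT, and the combination had the cytokine for 1 h after these 2 h. A further hour of CPT and an interaction of CPT with TNFα therefore cannot be told apart in the values that follow.

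The 220 bases upstream of the annotated start of 5 genes far below the additive sum are shown first, because they carry the κB motif that NF-κB binds, together with those of *JUN*, which also lay below the sum. The sequences are from RefSeq (GRCh38.p14), 5′ to 3′ on the strand of the gene, and capitals mark matches on either strand to the κB consensus or to the core GGAATTTCC, which overlap where both are found.
*CXCL8* (chr4:73740349-73740568, + strand): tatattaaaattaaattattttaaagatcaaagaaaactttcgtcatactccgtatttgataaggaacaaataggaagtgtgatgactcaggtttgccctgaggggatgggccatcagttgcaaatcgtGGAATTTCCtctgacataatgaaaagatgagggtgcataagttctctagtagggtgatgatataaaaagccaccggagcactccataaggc
*CXCL2* (chr4:74099196-74099415, - strand): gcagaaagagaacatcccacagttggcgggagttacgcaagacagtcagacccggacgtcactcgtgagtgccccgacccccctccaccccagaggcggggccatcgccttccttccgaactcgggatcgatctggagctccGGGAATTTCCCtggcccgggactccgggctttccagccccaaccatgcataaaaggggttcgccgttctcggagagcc
*BIRC3* (chr11:102317264-102317483, + strand): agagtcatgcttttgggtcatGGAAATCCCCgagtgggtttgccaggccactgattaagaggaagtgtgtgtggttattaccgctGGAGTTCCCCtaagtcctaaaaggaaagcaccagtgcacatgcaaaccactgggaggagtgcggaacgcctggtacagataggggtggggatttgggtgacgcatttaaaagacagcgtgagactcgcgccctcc
*NFKBIA* (chr14:35404750-35404969, - strand): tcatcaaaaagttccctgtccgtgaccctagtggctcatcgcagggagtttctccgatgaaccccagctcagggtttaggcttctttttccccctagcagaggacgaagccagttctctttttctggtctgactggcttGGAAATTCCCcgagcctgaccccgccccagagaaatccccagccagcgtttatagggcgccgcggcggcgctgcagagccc
*TNFAIP3* (chr6:137867039-137867258, + strand): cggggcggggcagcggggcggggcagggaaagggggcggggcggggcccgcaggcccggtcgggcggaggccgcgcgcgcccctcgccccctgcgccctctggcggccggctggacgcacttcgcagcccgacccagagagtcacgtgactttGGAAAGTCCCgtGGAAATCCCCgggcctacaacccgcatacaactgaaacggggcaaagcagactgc
*JUN* (chr1:58784048-58784267, - strand): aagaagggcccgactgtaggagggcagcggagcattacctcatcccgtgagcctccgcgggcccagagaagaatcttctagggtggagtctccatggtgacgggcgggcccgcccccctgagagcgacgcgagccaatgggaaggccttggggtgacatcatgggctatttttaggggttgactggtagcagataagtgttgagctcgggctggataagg
The κB consensus was found in 5.91% of all 35116 promoter windows (250 bases before to 50 after the start) and the core in 0.461%. The AP-1 motif TGANTCA, also searched on both strands, was found in 7.71%. Of the 12 genes furthest below additivity, 10 matched a window by symbol, and 6 of these 10 held the κB consensus, as did 870 of the 9662 matched genes in the whole comparison. In *CXCL8* the core began at -91 and an AP-1 motif at -137 from the start. The *JUN* window held no match to either κB motif or to TGANTCA. Other forms of AP-1 site were not searched, so their absence is not shown. A match describes the letters of the window only.

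CPT plus TNFα changed the RNA of many genes. Among the lists examined the lowest median ratio was that of the replication-dependent histone genes, which code for the proteins that package newly made DNA. Of 13556 genes that reached 20 reads in any of these 4 libraries, 707 (5.22%) were more than 2-fold higher and 696 (5.13%) more than 2-fold lower than in the untreated library. The 95% counting interval lay away from 0 for 689 of the higher and 689 of the lower genes, and 18 of the higher genes had no read in the untreated library. Among the 707 genes the median log2 ratio was 1.70 with the combination, 1.58 with CPT alone and 0.00 with TNFα alone. Among the 696 genes the corresponding medians were -1.35, -1.33 and -0.04. The 3 ratios share the untreated library. All counting intervals here cover the counting error of these libraries only, not the variation between cultures.

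The histone list holds the 73 genes whose symbols start with HIST, and histone genes with other symbols are not in it. Of these 73 genes, 46 passed the read filter, and 45 of the 46 were more than 2-fold lower with the combination. In an edgeR test with the spread pooled over the series, which called 3038 of 15267 genes higher (19.9%) and 3374 lower (22.1%) with the combination, 47 of 51 histone genes were lower and 0 higher. The median log2 ratio of the 46 genes was -3.76, against 0.02 over all genes that passed. The 10 genes lowered most among those with at least 100 reads were all histone genes, led by *HIST1H3J* (an H3 gene), *HIST1H2BM* and *HIST1H2BF* (H2B genes). *HIST1H3J* had 9716 reads without treatment, 168 with CPT, 7719 with TNFα and 224 with both agents. Its log2 ratio for the combination was -5.29 (95% interval -5.48 to -5.09). The fall was already present with CPT alone, and with TNFα alone *HIST1H3J* stayed at -0.03. Apart from histones, *MYC*, a growth-promoting transcription factor, went from 19405 to 2739 reads (log2 ratio -2.67), and it had 2095 reads with CPT and 17390 with TNFα. The kit captured total RNA, and histone transcripts that lack a poly(A) tail are counted with the rest.

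The 10 genes raised most among those with at least 100 reads were *FAM166A*, *C19orf35*, *LOC101060553*, *FOS*, *CXCL1*, *PKDREJ*, *COL8A2*, *LINC00273*, *SGK1* and *PABPN1L*. *FOS*, the immediate early partner of c-Jun in AP-1, had 205 reads without treatment, 2900 with CPT, 157 with TNFα and 3683 with both, a log2 ratio of 4.32 (4.12 to 4.53) for the combination. *SGK1*, a stress-responsive kinase, had 72, 722, 51 and 850 reads in the same order (log2 ratio 3.71). *CXCL1*, a neutrophil chemokine, was the only one of the 10 that TNFα alone had raised more than CPT alone, with 6, 20, 365 and 107 reads. The other 9 genes of this group had log2 ratios between 3.18 and 5.39 with CPT alone and between -0.81 and 1.11 with TNFα alone, on untreated counts of 4 to 13 reads for 6 of them.

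The median ratio for the combination was lower in longer genes, while the share of genes lowered by more than 2-fold was not higher in them. When 12870 genes with at least 10 reads in each library were split into 5 equal bins by the length of their hg19 locus, the median log2 ratio was 0.18 in the shortest bin (up to 7989 bp) and -0.10 in the longest (from 81958 bp). In the same bins 8.55% and 0.622% of genes were more than 2-fold higher and 5.05% and 3.96% more than 2-fold lower. In the 3 bins between, 3.77% to 5.44% were lower. With CPT alone the medians of these bins were 0.12 and -0.08, and with TNFα alone 0.00 and -0.01. The median departure from additivity was 0.07 in the shortest bin and -0.03 in the longest.

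The departure from additivity was taken as the log2 ratio for the combination minus the sum of the log2 ratios for CPT alone and TNFα alone, which equals the TNFα response in the presence of CPT minus that in its absence. For the 13143 genes whose 4 counts were all 10 or more, its median was 0.01 and the median of its absolute value 0.14, and 91.3% of the genes lay within 0.5 of 0. A total of 49 genes (0.373%) lay more than 2-fold below additivity and 74 genes (0.563%) more than 2-fold above, each with a counting interval on the same side of 0. These 2 groups differed in their read counts: 11 of the 49 genes but 0 of the 74 had at least 100 reads in each library. Of the 49 genes, 22 were more than 2-fold higher with TNFα alone, whereas all 74 genes above additivity were lower with TNFα alone than without treatment. Among all 15267 genes of the edgeR test described below, 305 were more than 2-fold higher and 7670 were lower with TNFα alone. The untreated and the TNFα count enter both the TNFα ratio and the departure. A TNFα count that is low by chance raises the departure, so this split follows in part from the rule.

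**Figure D1:**
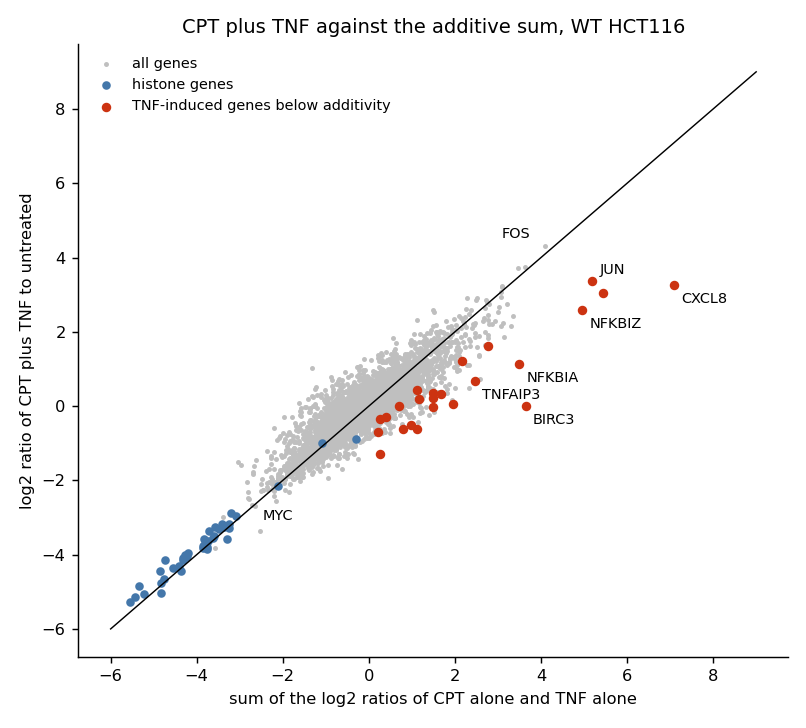
Log2 ratio of CPT plus TNFα to untreated (vertical) against the sum of the log2 ratios of CPT alone and TNFα alone (horizontal) for 13143 genes in WT HCT116 cells, with 1 library per condition. The line marks additivity. Histone genes (blue) lie near it at the lower left, and the TNFα-induced genes that passed the edgeR test (red) lie under it, with *CXCL8* the furthest (departure -3.81).

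The pooled-spread test gave the same contrast with a p-value. edgeR's quasi-likelihood test was fitted to all 12 libraries with 1 mean per cell line, TNFα and CPT state and an additive ICRF193 term, so that the spread comes from the libraries with and without ICRF193, and the lone CPT libraries are assumed to vary like these. Of 15267 genes tested, 75 (0.491%) were below and 55 (0.36%) above additivity at an adjusted p under 0.05 (1868 genes at an unadjusted p under 0.05). Of the 75 genes, 22 departed by more than 2-fold, and of the 55 genes 2 did. The number of calls depended on how the spread was estimated. Without the ICRF193 term 31 genes were below and 5 above, and DESeq2 called 21 and 1. A further fit used only the 8 libraries without ICRF193, with cell line as a block. In it 1 gene, *JUN*, was below (adjusted p = 0.00047, edgeR) and 0 above. The block fit gives both cell lines 1 shared departure, so it does not test the WT departure alone.

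Of the 75 genes below additivity, 26 were more than 2-fold higher with TNFα alone, as were 305 of all 15267 genes tested. DESeq2 called 17 of these 26 genes. All 26 belong to the 40 genes that the study lists as raised by TNFα. The study chose that list on the untreated and the TNFα library, which also enter the departure, so the direction of the list as a whole is not independent evidence: a count that is high by chance in the TNFα library lowers the departure. For the 26 genes the median log2 TNFα response was 1.56 without CPT and 0.42 with CPT. Both responses entered the choice of these genes, so a lower value with CPT was set by that choice.

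Relative to the untreated library, the 26 genes fell into several kinds. By the counting interval of the combined ratio, 15 were above the untreated level, 4 were not separated from it and 7 were below it. Their level with the combination was between 5.74% (*BIRC3*) and 185% (*JUN*) of the level with TNFα alone, with a median of 36.9%. The *CXCL* chemokines kept a multiple of their untreated level, the survival gene *BIRC3* did not exceed it, and the receptor ligand gene *EFNA1* lay under it with the combination.

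**Figure D2:**
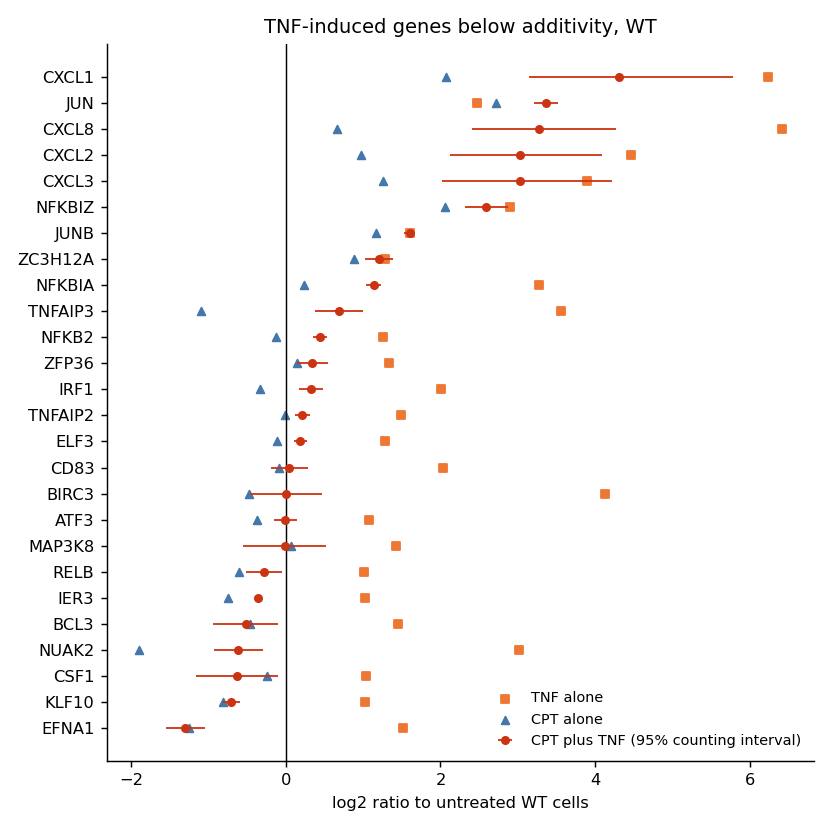
Log2 ratio to the untreated library for the 26 TNFα-induced genes below additivity: TNFα alone (squares), CPT alone (triangles) and CPT plus TNFα (circles, with 95% counting intervals), 1 library each. The circles lie left of the squares except for *JUN*, and at *JUNB* they coincide (1.61). They run from -1.30 (*EFNA1*) to 4.31 (*CXCL1*).

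Among genes with at least 10 reads in each library the furthest below the sum was *CXCL8*, which codes for a chemokine, a secreted protein that attracts leukocytes. *CXCL8* (interleukin-8; hg19 chr4:74606223-74609433) had 12 reads without treatment, 15 with CPT, 831 with TNFα and 104 with both. TNFα thus gave 85.6-fold and the combination 9.63-fold the untreated normalized level, where the product of the single ratios was 135-fold. The departure was -3.81 (95% interval -4.95 to -2.68), and the edgeR estimate was -3.42 with an adjusted p of 0.00015. *CXCL2*, another neutrophil chemokine, had 11, 17, 197 and 81 reads in the same order and a departure of -2.40 (-3.56 to -1.25, edgeR adjusted p = 0.0079). *CXCL1* and *CXCL3* had 6 and 9 untreated reads, under the minimum of 10, and departures of -4.00 and -2.12 (edgeR adjusted p = 8.1e-05 and 0.042).

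*CXCL2* kept 37.0% and *CXCL3* 54.9% of the level with TNFα alone, whereas *CXCL8* kept 11.3%. Of the 21 chemokine and cytokine genes listed, 9 passed the read filter for the combination and 4 that for the departure, of which 3 were below additivity. The third was *CSF1*, which codes for macrophage colony-stimulating factor, with 84, 56, 139 and 49 reads (departure -1.41). *LIF*, an IL-6 family cytokine, was the fourth, with 1613, 674, 1646 and 885 reads and a departure of -0.13. *CCL20* and *CSF2* had 0 and 1 reads without treatment, 54 and 43 with TNFα and 5 each with both agents, and their departures did not pass the edgeR test (adjusted p = 0.50 and 0.13).

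Feedback inhibitors of NF-κB were split between strong and no departure. *NFKBIA* (IκBα; hg19 chr14:35870716-35873960) had 1385 reads without treatment, 1285 with CPT, 10789 with TNFα and 2738 with both. The combination stood at 2.20-fold and TNFα alone at 9.63-fold the untreated level, and the departure was -2.36 (-2.49 to -2.24, edgeR adjusted p = 5.7e-31). *TNFAIP3*, which codes for the ubiquitin-editing enzyme A20, had 143, 53, 1357 and 207 reads, a departure of -1.77 (-2.28 to -1.27, edgeR adjusted p = 0.00024). CPT alone had lowered *TNFAIP3* to 0.47 of the untreated level, and the combination was 1.61-fold above it.

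*NFKBIZ*, the nuclear IκBζ, behaved otherwise at the level of CPT alone. It had 128, 422, 770 and 695 reads, so that each agent raised it and the combination (6.04-fold) was between CPT (4.17-fold) and TNFα (7.44-fold). Its departure was -2.36 (-2.68 to -2.04), as large as that of *NFKBIA*, although its level with both agents was 81.1% of that with TNFα alone. *ZC3H12A* (the RNase Regnase-1) and *ZFP36* (the mRNA decay factor TTP) had departures of -0.96 and -1.14, and *BCL3*, a nuclear IκB, of -1.51. In *NFKBIE*, *TNIP1*, *TNIP2*, *CYLD*, *OTUD7B*, *TRAF3* and *NFKBIB* the departure was between -0.37 and 0.17. In all, 5 of the 13 feedback genes were below additivity by more than 2-fold, 6 passed the edgeR test, and the median was -0.37.

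Among the 5 subunit genes of NF-κB, *REL* departed by -1.07, *RELB* by -0.68 and *NFKB2* by -0.68 (edgeR adjusted p = 0.0016, 0.040 and 4.4e-07). *NFKB1* and *RELA* had departures of -0.19 and 0.11. *REL* (c-Rel) was the one subunit gene more than 2-fold lower with the combination, with 359, 126, 424 and 100 reads. *NFKB2*, the p100 precursor of p52, remained 1.36-fold above the untreated level with 1700, 1230, 3284 and 2081 reads. The 15 measured genes of the receptor complex and the IKK kinases, among them *TNFRSF1A*, *RIPK1*, *TRAF2*, *CHUK* and *IKBKB*, had departures between -0.17 and 0.46 and a median of 0.08, and 0 of them passed either rule. Their median log2 ratio with TNFα alone was -0.03, so most had little TNFα response to lose. The same limit holds for any listed gene that TNFα alone hardly changed.

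*BIRC3*, which codes for the cIAP2 inhibitor of apoptosis (hg19 chr11:102188181-102210135), had 83 reads without treatment, 47 with CPT, 1175 with TNFα and 75 with both. After size factor scaling the combination and the untreated library had the same level (log2 ratio 0.01, interval -0.46 to 0.47), while TNFα alone gave 17.5-fold. The departure was -3.64 (-4.26 to -3.03, edgeR adjusted p = 1.7e-12). *BIRC2* (cIAP1) and *IER3*, a stress-inducible survival gene, departed by -0.61 and -0.62, and *TNFAIP2* by -1.27. *CFLAR*, *BCL2L1* and *XIAP*, which restrain caspases or mitochondrial death, had departures of -0.14, -0.02 and -0.32. Of the 11 survival and adhesion genes measured, 2 were below additivity by more than 2-fold and 4 passed the edgeR test. The median log2 ratio of this list with TNFα alone was 0.21.

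*ICAM1*, the leukocyte adhesion molecule, had 24, 28, 13 and 31 reads. It showed no induction by TNFα in this library pair, and its departure of 0.54 had an interval from -0.68 to 1.76.

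*CD83*, *IRF1*, *NUAK2*, *EFNA1* and *MAP3K8* were below additivity outside the lists. *CD83*, a surface protein of activated immune cells, had 308, 230, 1023 and 286 reads, so that the combination lay at the untreated level (log2 ratio 0.05) with a departure of -1.91. *NUAK2*, an AMPK-related kinase, had 226, 48, 1478 and 133 reads. CPT alone lowered *NUAK2* by 1.90 on the log2 scale, and the combination stood below the untreated level (-0.61, interval -0.93 to -0.30) in spite of an 8.09-fold level with TNFα alone. *EFNA1*, a ligand of Eph receptors, had 484, 161, 1121 and 177 reads and the lowest combined ratio of the 26 genes (-1.30), and its ratio with CPT alone was -1.25. *IRF1*, an interferon regulatory factor, had 634, 396, 2062 and 714 reads and a departure of -1.34. *LYRM5*, *SPATA6L* and *MIR3916* completed the 12 genes furthest below, each on 12 to 39 reads, and none of these 3 passed the edgeR test.

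**Figure D3:**
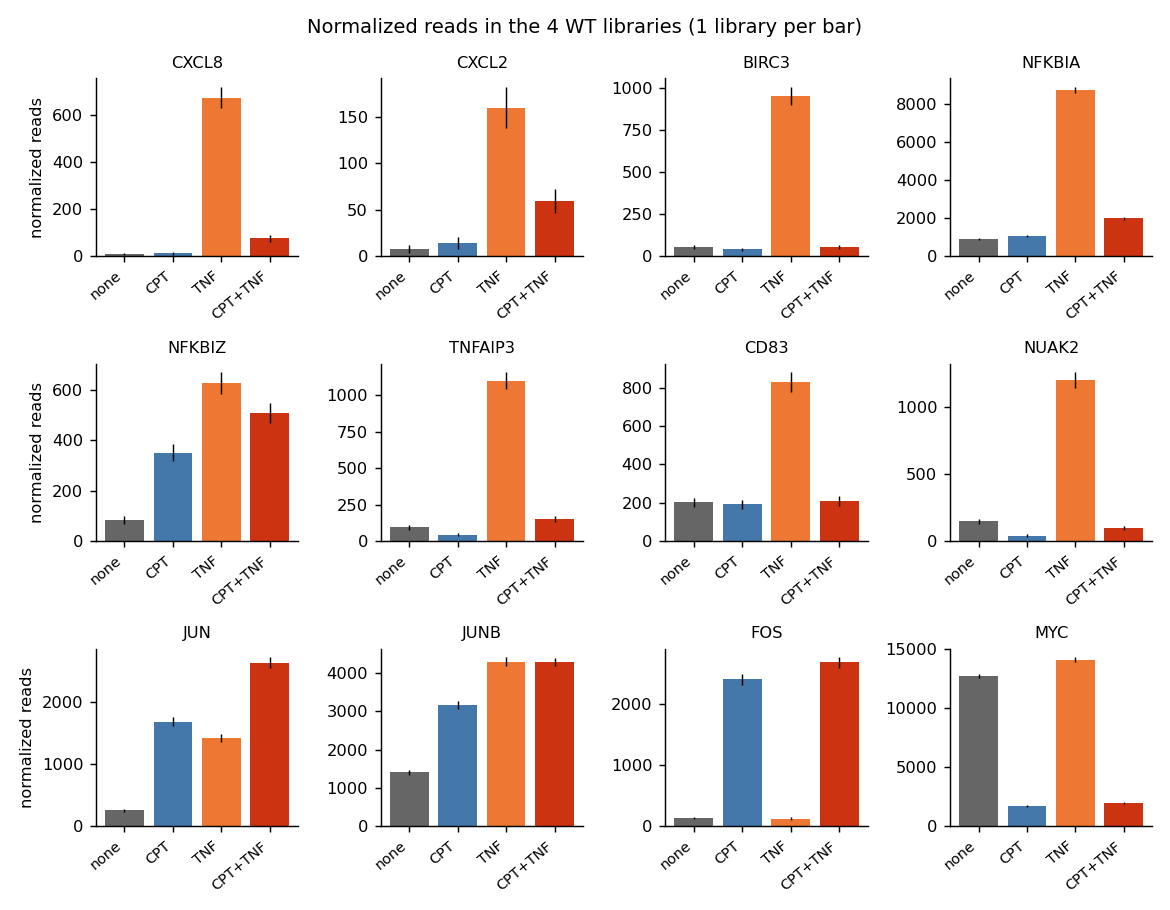
Normalized reads (reads divided by the size factor) of 12 genes in the 4 WT libraries, 1 library per bar, with bars of error for 95% counting error. *BIRC3* and *CD83* return to the untreated level with CPT plus TNFα, *JUNB* stands at the same level with TNFα and with both agents, and *FOS* and *MYC* follow CPT.

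The immediate early genes divided by which agent raised them. *FOS*, *FOSB*, *EGR1* and *IER2*, which CPT raised and TNFα hardly changed, had departures of 0.24, 0.00, -0.05 and 0.02 and were additive within their counting intervals. *MYC*, lowered by CPT, departed by 0.05 (-0.04 to 0.14). *JUN* (c-Jun; hg19 chr1:59246463-59249785) was raised by each agent, with 390 reads without treatment, 2025 with CPT, 1753 with TNFα and 3608 with both. The combination reached 10.3-fold, above CPT alone (6.57-fold) and TNFα alone (5.56-fold), and under the product of 36.5-fold. The departure of *JUN* was -1.83 (-2.01 to -1.65, edgeR adjusted p = 1.8e-23). *JUNB* had 2149, 3811, 5298 and 5881 reads and a departure of -1.17. *ATF3* and *KLF10* departed by -0.71 and -0.92, at 47.4% and 30.3% of their level with TNFα alone. Over the 30 immediate early genes measured the median departure was -0.10, 2 genes were below additivity by more than 2-fold, and 5 were below and 1 (*IER5*) above by the edgeR test.

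The scale of addition changed the picture for genes that both agents raised, and also for some genes that CPT alone lowered. With the increases added on the linear scale, the expected level of *JUN* was 11.1-fold against the observed 10.3-fold, a log2 difference of -0.11. The linear difference of *NFKBIZ* was -0.81 and that of *JUNB* -0.50. Among genes that CPT alone lowered, *MYC* moved from a log2 departure of 0.05 to a linear difference of -0.64. *HIST1H3J* moved from 0.25 to 2.54 and *NUAK2* from -1.73 to -3.49. For *CXCL8*, *BIRC3* and *NFKBIA*, none of which CPT alone raised by more than 2-fold, the linear values were -3.16, -4.10 and -2.16. Over the 35 measured genes of the study's TNFα list, the linear difference was below 0 for 35 with a median of -1.18, beside -1.20 on the log2 scale. The untreated and the TNFα library, on which that list was chosen, enter the difference on either scale. The shared direction is therefore not independent of the choice.

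The 24 p53 target genes, such as *CDKN1A* and *MDM2*, had departures between -0.61 and 0.48 with a median of -0.19, and 0 were beyond 2-fold. *BTG2*, *PMAIP1* and *PLK2* (edgeR adjusted p = 0.0021, 0.00055 and 0.00035) departed by -0.61, -0.48 and -0.38, and each was higher with TNFα alone by 0.45 to 0.78 on the log2 scale. The 10 housekeeping genes had departures between -0.27 and 0.20 with a median of 0.00. Histone genes, the list with the lowest median ratio for the combination, had a median departure of 0.13 (40 genes, 0 beyond 2-fold, with *HIST2H2BE* above additivity by the edgeR test at 0.58).

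**Figure D4:**
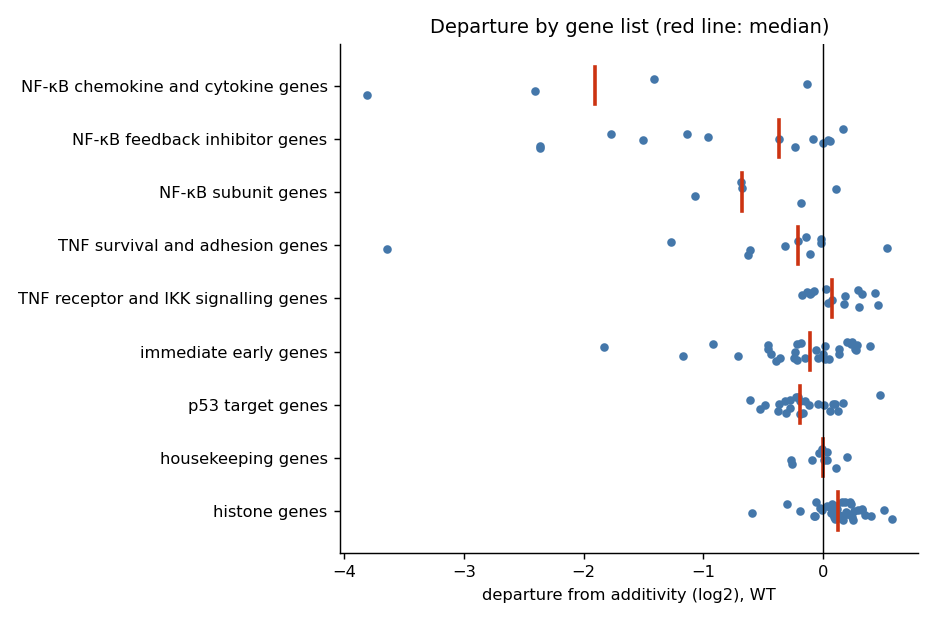
Departure from additivity (log2) of every measured member of 9 gene lists in WT cells, 1 point per gene, with the median of each list as a red line. The chemokine and cytokine list (median -1.91 over 4 genes; -0.13 with *LIF* alone at 50 or more reads in each library) and the NF-κB subunit list (-0.68) lie left of 0, and the signalling, housekeeping and histone lists lie around it.

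Above additivity, the genes were of another kind. The 12 furthest above were *LSMEM2*, *DLX1*, *LOC101929340*, *PAX2*, *AKAP3*, *PRR36*, *HOXD-AS2*, *ZNF132*, *CFAP57*, *YPEL1*, *IZUMO4* and *NKPD1*, and none of them passed the edgeR test. *LSMEM2* had 45 reads without treatment, 47 with CPT, 11 with TNFα and 82 with both (departure 2.34, interval 1.26 to 3.42). Over the 74 genes the lowest of the 4 counts had a median of 18.5 reads. With at least 50 reads required in each library, 1 gene remained above additivity and 14 below.

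Of the 55 genes above by the edgeR test, 2 departed by more than 2-fold in that fit, *TAS1R3* (a taste receptor subunit; 64, 89, 27 and 139 reads) and *PLEKHN1* (156, 95, 109 and 184 reads). *ID1*, an inhibitor of basic helix-loop-helix factors, had 4034, 2224, 1937 and 2674 reads. Both agents alone lowered *ID1* (log2 ratios -0.52 and -0.75), the combination stood at -0.44, and the departure was 0.83 (0.72 to 0.94, edgeR adjusted p = 7.8e-11). *PLEC*, *FASN* and *DYNC1H1*, which code for very large proteins, were among the others, with departures of 0.59, 0.64 and 0.49.

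The genes above additivity by the edgeR test were long and rich in G and C. Their median exonic length was 5597 bases and their median transcript GC content 61.2%, against 3031 bases and 49.3% over all genes tested. All 55 had a match for GC content. The 49 genes below additivity that TNFα alone raised by 2-fold or less had a median length of 2690 bases and a GC content of 38.6%. The median departures of these 2 groups were 0.43 and -0.45. A part of transcript length, GC content or RNA quality in these small departures was not tested.

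In the p65-deficient clone 32, CPT plus TNFα moved much the same genes on the whole. Of 13457 genes, 686 (5.1%) were more than 2-fold higher and 781 (5.8%) more than 2-fold lower than in the untreated clone 32 library. Among the 13206 genes that passed the read filter in both lines, 410 were higher in both, 71.3% of the 575 in WT and 67.0% of the 612 in clone 32. For lower genes 420 were shared, 63.8% of the 658 in WT and 56.7% of the 741 in clone 32. The 575 genes had a median log2 ratio of 1.54 in clone 32, and 3 of them were more than 2-fold lower there. Histone genes had a median of -3.81 in clone 32, and *FOS* stood at 4.38.

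The departures did not carry over in the same way. In clone 32, 69 genes (0.557%) were below and 29 (0.234%) above additivity, and the edgeR test called 17 (0.111%) below and 4 (0.0262%) above. Of the 49 genes below additivity in WT cells, 30 had enough reads in clone 32, their median departure there was -0.10, and 3 were below additivity in both. Of the 26 TNFα-induced genes, 22 were measured in clone 32. Their median TNFα response without CPT was 0.04, against 1.56 for the 26 genes in WT, and their median departure was -0.07. A gene that TNFα does not raise cannot show a loss of that response.

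*NFKBIA* had 1468 reads in untreated clone 32, 1785 with CPT, 660 with TNFα and 777 with both, in libraries of unequal depth, a departure of -0.16 (-0.34 to 0.02). The difference between the departures of the 2 lines passed the edgeR test for 137 genes in each direction (0.897%), but without the ICRF193 term for 13 lower and 10 higher in WT, and DESeq2 gave 10 lower and 0 higher. The 137 lower genes included *NFKBIA* (adjusted p = 8.8e-19), *NFKBIZ* (5.8e-09), *CD83* (3.0e-07), *TNFAIP2* (7.6e-09) and *JUNB* (3.0e-09). For *CXCL8* and *CXCL2*, with 5 to 28 reads in the clone 32 libraries, it did not (adjusted p = 0.54 and 0.28).

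*JUN* and *ATF3* were below additivity in both lines. In clone 32 *JUN* had 219 reads without treatment, 1791 with CPT, 591 with TNFα and 1368 with both, so that TNFα alone raised it by 2.71 on the log2 scale and by 0.77 in the presence of CPT. Its departure was -1.94 (-2.18 to -1.69, edgeR adjusted p = 7.3e-18), and the difference from WT did not pass the test (adjusted p = 0.85). *ATF3*, a stress-induced partner of c-Jun, departed by -1.29 in clone 32 and by -0.71 in WT (adjusted p of the difference = 0.098). *JUN* and *ATF3* were the 2 of the 26 genes that passed the edgeR test in clone 32. By the counting rule a further gene of the 26, *CSF1*, was more than 2-fold below additivity there (88, 79, 44 and 19 reads; -1.17, interval -2.06 to -0.28), but it did not pass the edgeR test (adjusted p = 0.55).

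**Figure D5:**
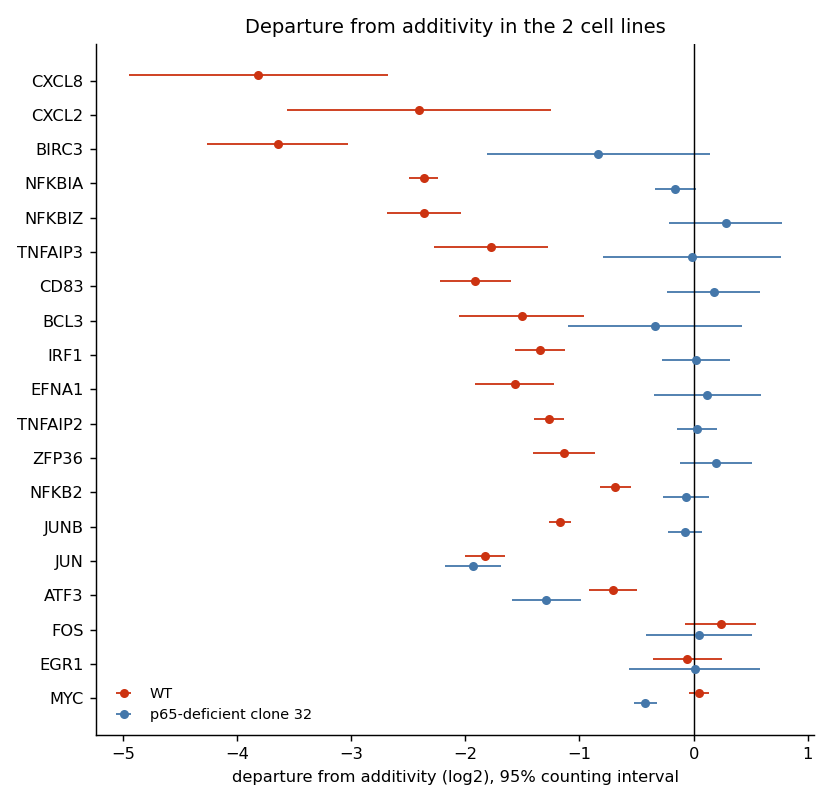
Departure from additivity (log2, with 95% counting interval) of 19 genes in WT cells (red) and in p65-deficient clone 32 (blue), shown where each of the 4 libraries had at least 10 reads. *JUN* and *ATF3* lie below 0 in both lines, and the NF-κB target genes lie below 0 in WT and nearer to 0 in clone 32.

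With ICRF193 in place of CPT, which shares the untreated and the TNFα library with the values above, 28 of 13104 genes (0.214%) were below and 34 (0.259%) above additivity. Of the 26 TNFα-induced genes, 23 were measured there, with departures between -0.81 (*CXCL8*) and 0.38 (*JUN*), a median of -0.02, and 0 calls. The 26 genes were chosen by the edgeR test, whose spread comes from the libraries with and without ICRF193. A gene with a large departure with ICRF193 was less likely to pass it, so these small values are not independent of the choice. *NFKBIA* and *BIRC3* departed by -0.17 and 0.24 with ICRF193, beside -2.36 and -3.64 with CPT.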

How the data were processed

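Total RNA-seq of 12 HCT116 libraries was analysed, with 1 library per combination of cell line, inhibitor and TNFα. The authors trimmed reads with Trimmomatic and aligned them with STAR to hg19, and the deposited counts per gene symbol (26364 genes) came from featureCounts 1.5.0 per the file headers, over exons and without a strand option, so that sense and antisense reads are not separated. Counts were divided by DESeq2 1.42.0 size factors. Ratios of 2 libraries carry exact Clopper-Pearson 95% intervals, and departures carry a normal 95% interval from the 4 counts, for counting error only. Genes needed 20 reads in one of the 4 libraries for ratios and 10 in each for departures, and 2-fold was the threshold. edgeR 4.0.16 (quasi-likelihood, TMM, Benjamini-Hochberg) gave adjusted p over all genes, with 3 residual degrees of freedom. These compare single libraries, and p-values measure only the spread between libraries with and without ICRF193. Both procedures were tested on simulated counts. The simulation for edgeR gave every library the same spread, so it could not test whether the lone CPT libraries vary like the others. GC content is that of the longest GENCODE v29 transcript of a symbol.

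Named genes are the members of the gene lists, the 10 raised and 10 lowered most by the combination, the 12 furthest below and above additivity, and genes the study names. *ID1*, *TAS1R3*, *PLEKHN1*, *PLEC*, *FASN* and *DYNC1H1* were chosen after their values were seen. Members and lists were chosen with earlier results of these data known. Scaling, read minimum, fold threshold, pseudocount, scale of addition and test were varied. Results on some genes are not reported here.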

Additional observations from a re-analysis of the deposited data

Results flagged for a closer look

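For 17 of the named genes, the departure from additivity differed between WT cells and clone 32 in the edgeR test of the difference itself (adjusted p under 0.05 over all 15267 genes). Over all genes this test called 137 in each direction (0.897% each). Some of the 17, such as *BIRC3*, *NFKBIA*, *NFKBIZ* and *CD83*, were named for their WT departure, and *ID1* after its values were seen. The count of 17 is therefore not independent of the WT departures. The WT libraries of 12 of the 17 genes, *BIRC3*, *NFKBIA*, *NFKBIZ*, *CD83*, *ZFP36*, *TNFAIP2*, *JUNB*, *KLF10*, *IRF1*, *EFNA1*, *MAP3K8* and *ELF3*, had shown a TNFα response of more than 2-fold. The edgeR estimates of the departure in WT minus that in clone 32, which come from the model with the ICRF193 term and are not the subtraction of the departures given in the report, were, in this order, -3.23, -2.04, -2.31, -2.0, -1.24, -1.19, -1.01, -1.01, -1.17, -1.58, -2.51 and -0.658 on the log2 scale. *B2M* differed by -0.355. The departure was higher in WT for *ID1* (0.692), *GDF15* (0.47), *MYC* (0.463) and *IER5* (0.445). Without the ICRF193 term the test called 13 genes lower and 10 higher, and DESeq2 10 lower and 0 higher, for the same difference. The TNFα and CPT plus TNFα libraries of clone 32 had 8101212 and 8154407 reads, beside 20524958 and 18502365 in the other 2, and the part of depth in these differences was not tested.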

How the results depend on the processing

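No paired analysis was possible because each condition has 1 library and no replicate numbers. Scaling by TMM factors, total counts or the size factors of the same cell line, and a pseudocount of 1, kept the numbers of genes higher, lower, below and above additivity within 1.5 times of those given in both lines, and TMM scaling moved the median of all genes from 0.02 to -0.02. For WT cells, a minimum of 1 read gave 2957 genes higher and 2046 lower, a minimum of 100 reads 148 higher and 511 lower, and a 3-fold threshold 405 and 240. The fall from 707 to 148 higher genes comes from the removal of genes with few reads. A minimum of 50 reads in each library left 14 genes below and 1 above additivity, and with it the median of the chemokine and cytokine list, over 4 genes before, was -0.13 and rested on *LIF* alone. Addition on the linear scale left 30 genes above. In the pooled test, leaving out the ICRF193 term gave 31 genes below and 5 above in WT, 4 and 1 in clone 32, and 13 and 10 for the difference between the lines. Without a read filter 7 genes were above in clone 32. With cell line as a block, which fits 1 treatment effect shared by both lines, 1385 genes were higher with the combination and 1 gene was below and 0 above additivity. DESeq2 gave 724 genes higher and 1713 lower with the combination in WT and 995 and 1672 in clone 32, 21 below and 1 above additivity in WT, 3 and 0 in clone 32, and 10 and 0 for the difference. The cause of the spread between these tests was not tested. Among the named genes, no ratio past 2-fold and no departure called below or above additivity changed direction under these alternatives. Smaller departures could change sign. On the linear scale *MYC* went from 0.05 to -0.64 and *HIST1H2BM* from 0.29 to -0.36. Of the single genes and list medians, 39 of 1531 values left the counting interval, 32 of them on the linear scale. Depth limits the genes above additivity and the chemokines in clone 32.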
